A study of Mus musculus with 6 samples.

Results

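The genes described here are the ligands, receptors and signal carriers of the IL-6 cytokine family in RFB cells, labelled as kidney fibroblasts. They are 10 genes chosen by name, IL11, LIF and IL6 among the ligands, IL11RA, LIFR, IL6R, OSMR and IL6ST among the receptors, and STAT3 and SOCS3 downstream, out of 20323 genes in the deposited table. IL11RA has 2 rows, and the one with more counts was used. TGF-β plus the chemokine CXCL10 had been given to the cells of 3 libraries, whose titles carry a volume of 5 µl and no concentration. TGF-β alone had been given to the cells of the other 3, titled NC. All 6 libraries thus come from TGF-β-treated cells, and none from untreated ones. The series' design text speaks of a SUV39H1 knockdown, which no sample label names. The labels call the organism mouse, while every row is a human Ensembl gene, so each level is one on a human gene model. CXCR3, which encodes the receptor of CXCL10, had 0 counts in all 6 libraries.

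Cytokines of this family signal through receptors that share the subunit gp130, encoded by IL6ST. IL-11 and IL-6 first bind a private alpha receptor (IL11RA or IL6R) that does not signal by itself, whereas LIF and oncostatin M bring gp130 together with the signalling receptors LIFR or OSMR. JAK kinases on the receptors then phosphorylate STAT3, and SOCS3, which STAT3 induces, binds gp130 and dampens the signal. Fibroblasts are known to secrete IL-11 in response to TGF-β, and IL-11 is known as an autocrine factor in their fibrotic activation.

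Libraries held between 12838106 and 15587409 counts. Levels are given as CPM, counts relative to library size scaled with TMM, and, where genes are compared with each other, as the authors' FPKM, which also divides by transcript length. All 10 fibroblast markers checked were above the low-count filter, with summed levels of 50611 to 54928 CPM in CXCL10 libraries and 52966 to 60439 CPM in TGF-β libraries. The summed tubular epithelium markers reached 19.4 to 21.4 CPM and 21.2 to 22.7 CPM (4 of 10 at 0 throughout: LRP2, SLC34A1, UMOD and AQP2), the endothelial ones 48.4 to 52.2 CPM and 51.8 to 54.3 CPM (mostly TEK), and the leukocyte ones 42.4 to 48.3 CPM and 42.5 to 47.9 CPM (mostly CD68, with CD3E at 0). Their part in the results was not tested. In bulk RNA, fewer expressing cells and less RNA per cell cannot be told apart. Replicate 1 stood apart in both groups. Its counts differed from those of replicates 2 and 3 by 8.81 and 8.44 times sampling noise with CXCL10 and by 17.4 and 16.2 times with TGF-β alone (chi-square per degree of freedom), against 2.79 and 3.07 between replicates 2 and 3, so its values are given beside the main results. On the first principal component (48.4% of the variance), TGF-β replicates 1 to 3 lay at -5.54, 28.3 and 29.5. CXCL10 replicates 1 to 3 lay at -32.8, -9.78 and -9.67. Within each group replicate 1 was thus shifted in the direction in which the CXCL10 libraries differed from the TGF-β libraries.

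IL11, LIF and, by less, the receptor gene OSMR were higher with CXCL10, while the shared subunit IL6ST, STAT3 and SOCS3 lay at almost the same level in both groups. Of the 10 genes, 8 passed a filter on low counts and were tested across 11970 genes (edgeR quasi-likelihood, threshold of 0.05 on the adjusted p). Libraries of the same replicate number deviated together from their group means, most clearly those of replicate 1 (correlation across genes of 0.330). Replicates 2 and 3 were only weakly told apart, at 0.121 and 0.163 for equal numbers and 0.082 and 0.080 for unequal ones. The fit was therefore run with and without the number as a pairing. Without pairing it called 0 of the 8 genes, as it called 0% of all genes. At an unadjusted edgeR p under 0.05 were 3 of the 8 (IL11, LIF and OSMR), beside 2449 of the 11970 genes tested. In that unpaired design limma-voom called 0 of the 8 and DESeq2 called 1 (LIF), beside 1.44% of all genes called higher by DESeq2. The paired fit called 3 of the 8 higher and 0 lower, beside 9.71% of all genes called higher and 8.04% called lower. With TGF-β replicate 1 left out, the unpaired fit also called 3 higher (10.8% of all genes). Leaving out any other single library gave 0. The paired fit without both replicate 1 libraries called 3 higher (12.9% of all genes). That without replicate 2 or without replicate 3 called 2 higher, OSMR being lost, beside 733 and 701 of the 11970 genes called higher. These paired fits on fewer libraries leave little replication, so their p-values rest largely on variance shared across genes. The CXCL10 libraries all lay above the TGF-β libraries for 2 of the 8 genes, IL11 and LIF, beside 11.1% of all genes tested.

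**Figure D1:**
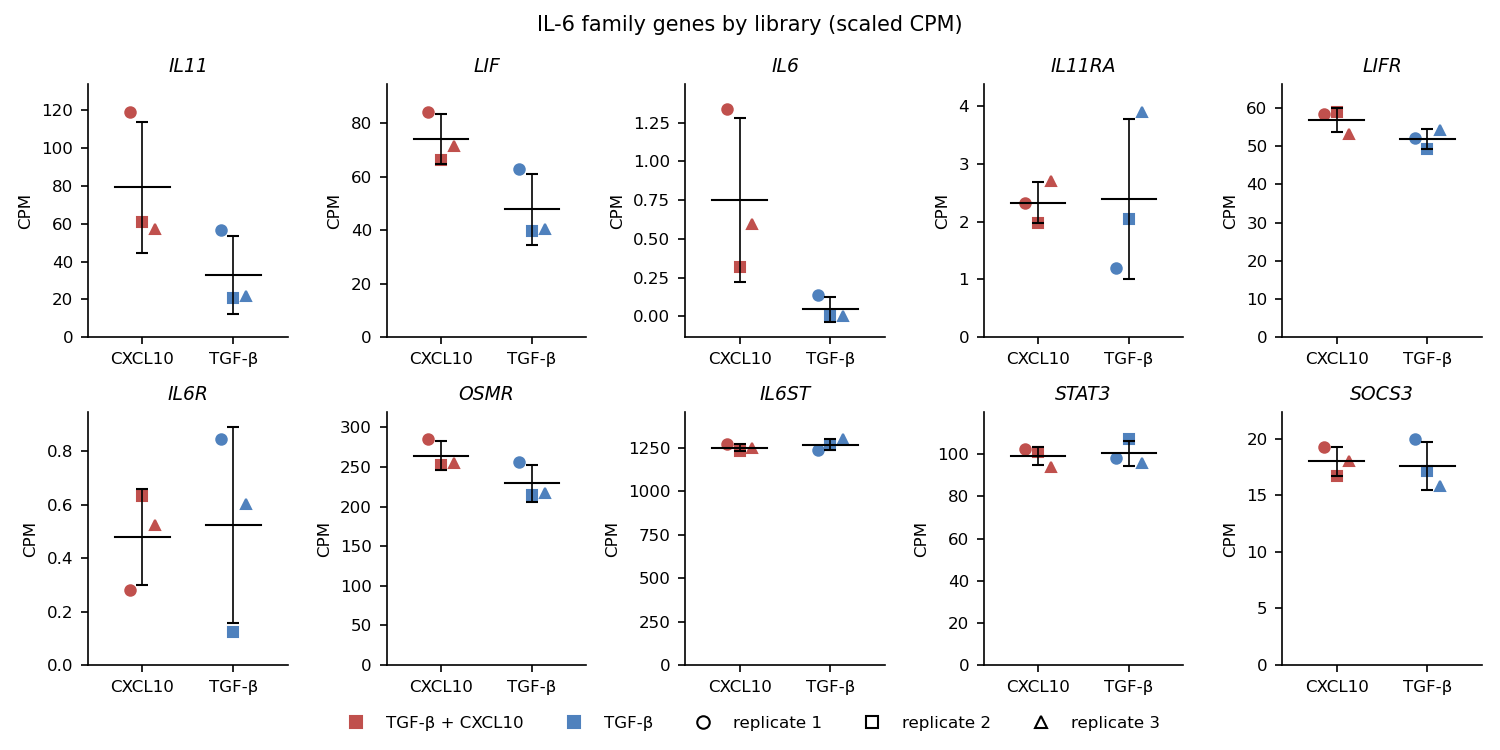
Scaled CPM of the 10 genes in each library (linear axes), with TGF-β plus CXCL10 on the left and TGF-β on the right of each panel. Points are libraries, with a shape for each replicate number, the bar is the group mean and the whiskers its SD (n = 3 per group). IL11, LIF and IL6 do not overlap between groups, and for IL11 the highest TGF-β library (56.6 CPM) almost reaches the lowest CXCL10 library (57.4 CPM).

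IL11 (ENSG00000095752) encodes interleukin-11. It stood at 119, 61.0 and 57.4 CPM in CXCL10 replicates 1 to 3, against 56.6, 20.6 and 21.7 CPM in TGF-β replicates 1 to 3. Replicate 1 was the highest library of each group, and TGF-β replicate 1 came close to the lowest CXCL10 library. The means were 79.3 ± 34.8 CPM with CXCL10 and 33.0 ± 20.5 CPM with TGF-β alone (SD, n = 3 each), a ratio of 2.40. The log2 difference within pairs was 1.07, 1.56 and 1.40, and the paired fit gave 1.32 (SE 0.09, edgeR adjusted p = 2.89e-06). Without pairing the change was 1.27 (SE 0.40, edgeR adjusted p = 0.161). Within the TGF-β group alone, replicate 1 exceeded the mean of replicates 2 and 3 by 1.41 on the log2 scale, so 1 library of that group differed from its fellows by as much as the treatments differed. Leaving that library out raised the unpaired log2 change to 1.91 (edgeR adjusted p = 0.00136), leaving out CXCL10 replicate 1 lowered it to 0.85 (0.453), and leaving out replicate 1 of both groups gave 1.49 in the paired fit. On the FPKM scale the paired log2 change was 1.19 (limma-trend adjusted p = 0.00651).

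LIF (ENSG00000128342), which encodes leukemia inhibitory factor, held 84.3, 66.1 and 71.3 CPM in CXCL10 replicates 1 to 3 and 63.0, 39.7 and 40.4 CPM in TGF-β replicates 1 to 3. The groups did not overlap, although TGF-β replicate 1 came within a few CPM of CXCL10 replicate 2. Means were 73.9 ± 9.35 CPM and 47.7 ± 13.2 CPM (SD, n = 3 each), a ratio of 1.55. The pairs differed by 0.42, 0.73 and 0.82 (log2), and the paired change was 0.65 (SE 0.08, edgeR adjusted p = 0.000120), against 0.63 (SE 0.17, adjusted p = 0.161) without pairing. DESeq2 called LIF without pairing as well (adjusted p = 0.0145). Its excess in TGF-β replicate 1 over replicates 2 and 3 was 0.65 on the log2 scale, equal to the paired change, and without that library the unpaired change was 0.88.

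The call on LIF depended on the scale of the deposited values. In FPKM, LIF stood at 21.4, 20.0 and 24.9 with CXCL10 and at 28.3, 12.5 and 13.9 with TGF-β alone, so that TGF-β replicate 1 was the highest of all 6 libraries and the groups overlapped. The paired log2(FPKM + 1) change was 0.35 (SE 0.21, limma-trend adjusted p = 0.373). The length implied by each library's count and FPKM was 3871, 3262 and 2822 bases with CXCL10 and 2212, 3272 and 2955 bases with TGF-β alone, shortest in the TGF-β library with the high FPKM and longest in its CXCL10 partner. For SOCS3 that length was 2734 bases in every library, and for IL11 it ranged from 1358 to 1555 bases. In the authors' deposited table LIF has a log2 ratio of mean FPKM of 0.28 and an adjusted p of 0.0242, the only one of the 10 genes under 0.05, and IL11 has 1.19 and 0.302. The authors' test is not stated. Its unadjusted p-values (0.000137 for LIF, 0.0303 for IL11) lie near those of unpaired DESeq2 on the counts (0.000107 and 0.0304). The adjusted p of LIF therefore may not refer to its FPKM ratio.

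**Figure D2:**
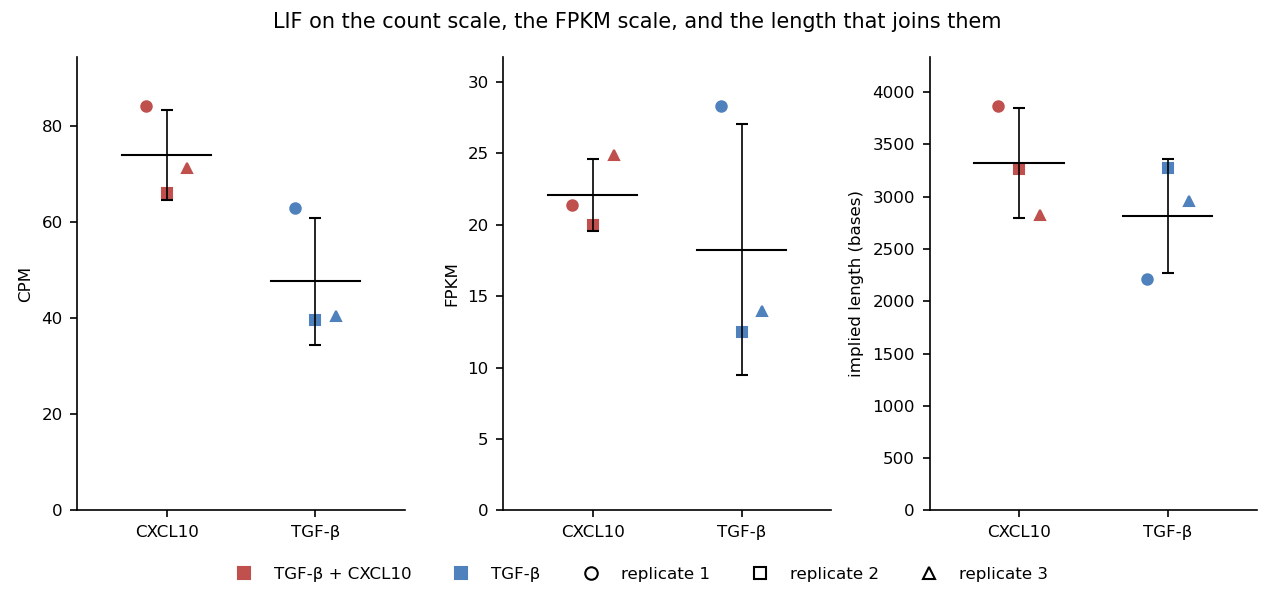
LIF in each library as scaled CPM (left panel), as the authors' FPKM (middle panel) and as the length in bases that relates the raw count to the FPKM (right panel), with TGF-β plus CXCL10 left of TGF-β in each panel. Points are libraries, bars means and whiskers SD (n = 3 per group). TGF-β replicate 1 lies below every CXCL10 library in CPM (63.0) and above every one in FPKM (28.3), and its implied length is the shortest, at 2212 bases.

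IL6 (ENSG00000136244), the founding member of the family, was close to the detection limit. CXCL10 replicates 1 to 3 had 19, 4 and 8 counts, and TGF-β replicates 1 to 3 had 2, 0 and 0, where a count of 0 allows up to 0.187 CPM in replicate 2 and 0.225 CPM in replicate 3 (3 counts each). Every CXCL10 library was above every TGF-β library, at 1.34, 0.316 and 0.600 CPM against 0.141, 0 and 0 CPM. Summed over the groups, 31 counts against 2 gave a ratio of 16.8, with an exact 95% interval of 4.27 to 145 that covers counting error only. An exact two-sided permutation test over libraries gave p = 0.1, the smallest that 3 against 3 allow. IL6 failed the low-count filter. Without that filter edgeR gave an adjusted p of 0.111 unpaired. The paired fit without the filter, added after the counts had been seen, gave 0.0320 (log2 change 3.90, SE 1.33), calling 8.86% of 15691 genes higher.

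Of the receptor genes, OSMR, IL6ST and LIFR moved little, while IL11RA and IL6R had too few counts to tell. OSMR (ENSG00000145623), whose product pairs with gp130 for oncostatin M, held 285, 253 and 255 CPM with CXCL10 and 256, 215 and 217 CPM with TGF-β alone. The groups overlapped, since TGF-β replicate 1 lay above CXCL10 replicates 2 and 3, but each pair moved upward, by 0.15, 0.23 and 0.24 (log2). The paired change was 0.21 (SE 0.05, edgeR adjusted p = 0.00907), and it did not pass without pairing (0.219), on the FPKM scale (limma-trend adjusted p = 0.118), or in the paired fit without replicate 2 (edgeR adjusted p = 0.0915) or replicate 3 (0.0857). OSMR in TGF-β replicate 1 exceeded replicates 2 and 3 by 0.25 on the log2 scale, and without replicate 1 of both groups the paired change was 0.23.

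IL6ST (ENSG00000134352), the gp130 gene, held 1272, 1232 and 1250 CPM in CXCL10 libraries and 1237, 1268 and 1300 CPM in TGF-β libraries. Its paired log2 difference was -0.02 (SE 0.04, edgeR adjusted p = 0.807), and the groups overlapped. LIFR (ENSG00000113594) held 58.4, 59.0 and 53.2 CPM with CXCL10 and 52.0, 49.3 and 54.3 CPM with TGF-β alone, overlapping, with a paired difference of 0.13 (SE 0.07, edgeR adjusted p = 0.246) that came out at -0.09 in FPKM.

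Both private alpha receptors were scarce. IL11RA (ENSG00000137070) had 33, 25 and 36 counts with CXCL10 and 17, 33 and 52 with TGF-β alone, or 2.33 ± 0.36 CPM and 2.39 ± 1.39 CPM (SD, n = 3 each). Its TGF-β libraries spanned the whole range of the CXCL10 libraries, and the paired log2 difference of 0.06 had an SE of 0.36 (edgeR adjusted p = 0.936), so a change of moderate size was not detectable at this depth. The other row of that symbol is described in the table as a readthrough of GALT into IL11RA, with 26, 12 and 32 counts with CXCL10 and 20, 37 and 32 with TGF-β alone. Its reads could be shared with IL11RA, which makes both values uncertain. IL6R (ENSG00000160712) had 4, 8 and 7 counts with CXCL10 and 12, 2 and 8 with TGF-β alone, or 19 against 22 in sum, and failed the low-count filter (exact two-sided permutation p = 0.9). The ratio of the sums was 0.935, with an exact interval of 0.479 to 1.81 for counting error only.

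Downstream, the transcription factor gene STAT3 (ENSG00000168610) held 102, 101 and 94.1 CPM with CXCL10 and 98.1, 107 and 96.0 CPM with TGF-β alone, a paired log2 difference of -0.02 (SE 0.06, edgeR adjusted p = 0.878). SOCS3 (ENSG00000184557), the feedback inhibitor, held 19.3, 16.7 and 18.0 CPM with CXCL10 and 19.9, 17.1 and 15.8 CPM with TGF-β alone, a paired difference of 0.03 (SE 0.11, edgeR adjusted p = 0.890). For both genes the groups overlapped, and the sign of so small a difference turned with the setting: scaling by library totals gave -0.01 for SOCS3. The RNA level of STAT3 does not measure its phosphorylation.

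**Figure D3:**
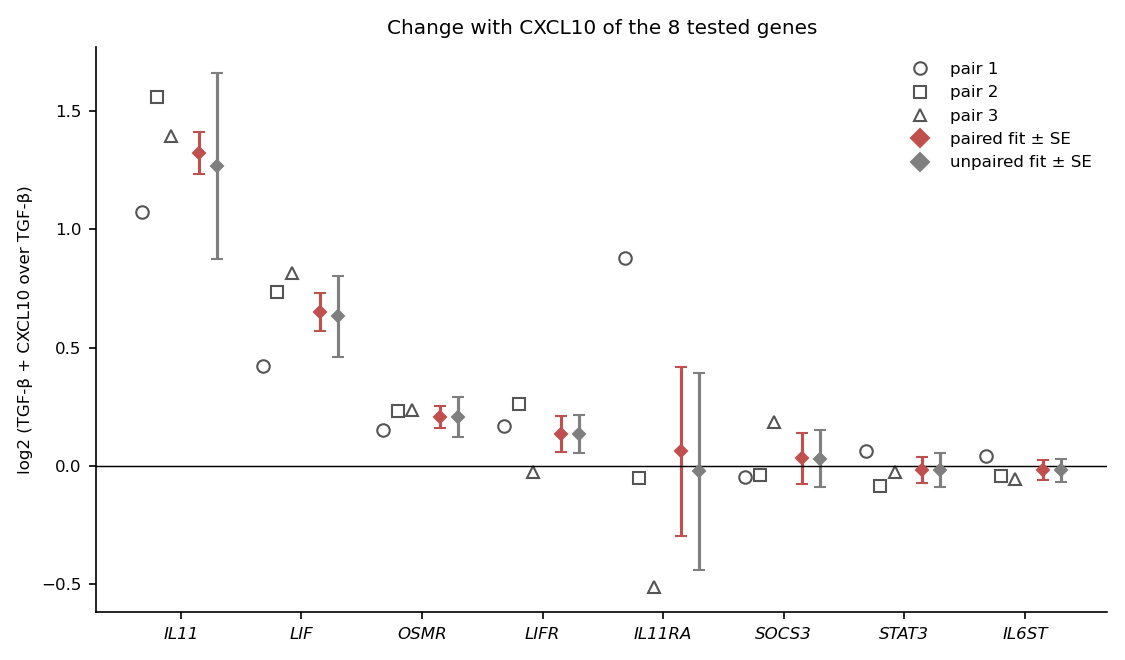
Log2 change with CXCL10 over TGF-β alone for the 8 genes tested, ordered by the paired change. Open shapes are the differences within the 3 same-numbered pairs, and diamonds with whiskers are the paired and the unpaired edgeR estimates with their SE. The 3 pairs are all above 0 for IL11, LIF and OSMR, they lie on both sides of 0 for the other 5 genes, and the paired SE of IL11 (0.09) is smaller than its unpaired SE (0.40).

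Per transcript length the system was dominated by its shared subunit. IL6ST averaged 190 ± 1.33 FPKM with CXCL10 and 198 ± 9.34 FPKM with TGF-β alone (SD, n = 3 each), higher than 98.6% of the rows of the table in both groups. OSMR followed at 51.6 ± 2.72 FPKM and 45.8 ± 3.12 FPKM, then STAT3 at 24.6 ± 0.99 FPKM and 25.8 ± 1.52 FPKM. SOCS3 (6.47 ± 0.46 FPKM and 6.53 ± 0.69 FPKM) and LIFR (6.11 ± 0.92 FPKM and 6.53 ± 0.47 FPKM) could not be told apart in either group. IL11RA averaged 1.42 ± 0.25 FPKM and 1.38 ± 0.82 FPKM, and IL6R 0.249 ± 0.113 FPKM and 0.222 ± 0.174 FPKM.

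The place of IL11 in that order differed between the groups, while that of LIF did not. IL11 averaged 51.7 ± 21.9 FPKM with CXCL10, where its range overlapped that of OSMR and lay above that of STAT3, and 22.7 ± 11.8 FPKM with TGF-β alone, where its range overlapped that of STAT3 and lay below that of OSMR. LIF averaged 22.1 ± 2.53 FPKM and 18.3 ± 8.75 FPKM, overlapping STAT3 in both groups. The ratio of IL11 to LIF in FPKM was 3.60, 2.03 and 1.51 in the CXCL10 libraries and 1.28, 1.24 and 1.17 in the TGF-β libraries, with no overlap. In raw counts, which are not divided by length, it was 1.42, 0.922 and 0.805 with CXCL10 and 0.899, 0.519 and 0.537 with TGF-β alone, where TGF-β replicate 1 overlapped the CXCL10 libraries. IL6ST exceeded IL11 in FPKM by 2.47-, 4.63- and 5.08-fold with CXCL10 and by 5.20-, 12.8- and 12.7-fold with TGF-β alone. IL6ST exceeded IL11RA by 113- to 158-fold with CXCL10 and by 91.1- to 285-fold with TGF-β alone.

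**Figure D4:**
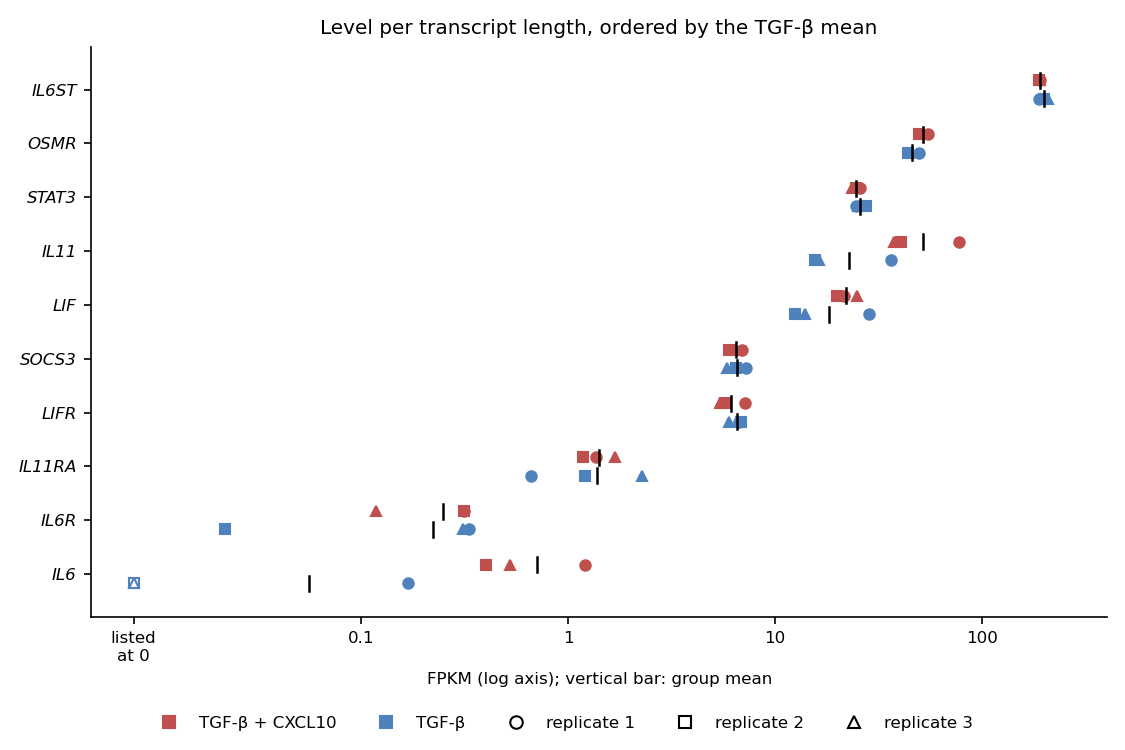
FPKM of the 10 genes on a log axis, ordered from top to bottom by the TGF-β mean, with TGF-β plus CXCL10 drawn above TGF-β for each gene. Points are libraries, short vertical bars are group means, and open shapes at the left edge are the 2 TGF-β libraries in which IL6 is listed at 0. IL6ST is at 188 to 207 FPKM in all libraries, and the means of IL11 (51.7 and 22.7 FPKM) lie farthest apart on this axis among the genes above 1 FPKM.

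IL11 had its closest companions outside the family. Over the 6 libraries, and among 9698 other genes that averaged 5 CPM or more, the log2 CPM of ELOA, SASH1, MRTO4, IGFBP5 and RGMB followed it most closely, each with a Pearson r above 0.998. OSMR, for comparison, followed it with an r of 0.997 and LIF with 0.984. IGFBP5, which encodes an insulin-like growth factor binding protein, averaged 125 ± 50.7 CPM with CXCL10 and 55.5 ± 29.4 CPM with TGF-β alone, and RGMB, a BMP co-receptor, 65.6 ± 27.8 CPM and 29.7 ± 16.2 CPM (SD, n = 3 each). Their ratios of means were 2.25 and 2.21, against 2.40 for IL11. ELOA, SASH1 and MRTO4, closest by r, moved less, with ratios of 1.29, 1.32 and 1.43, and ELOA and MRTO4 overlapped between groups. Pearson r does not measure the size of a change. LIF was followed most closely by STIP1, CEMIP2, IL7R and NUDC (r of 0.998 to 0.999). These values describe 6 libraries that share the high position of replicate 1 in each group, and the top of a search over so many genes is high by construction.

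Of 83 other genes of the pathway, in 7 lists, 75 were tested. The unpaired edgeR test called 0 of the 75. At an unadjusted p under 0.05 in that test were 28, beside 2449 of all 11970 genes tested. Without pairing limma-voom called 0 of the 75 and DESeq2 called 8, beside 2.8% of all genes called by DESeq2. The paired fit called 16 higher and 12 lower, beside 9.71% and 8.04% of all genes. Without replicate 1 of both groups it called 14 higher and 15 lower (12.9% and 11.1% of all genes). With scaling by library totals the paired split was 12 higher and 14 lower (7.33% and 11.4% of all genes). The median paired log2 change over the 75 genes was 0.02, beside -0.01 over all genes tested. Of the 86 tested genes that the table's own annotation puts in the JAK-STAT pathway, the 10 genes above left out, 11 were higher and 10 lower in the paired fit, with a median of -0.03. Changes in the following paragraphs are paired log2 changes with edgeR adjusted p values. In the unpaired edgeR fit the adjusted p of each gene called was at least 0.161.

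Among the other ligands, of which 5 of 8 were tested, the paired fit called 1 higher and 0 lower, beside 9.71% and 8.04% of all genes. It did not call CLCF1, CTF1 or EBI3. CLCF1, a ligand of the CNTF receptor, differed by 0.09 (adjusted p = 0.655), CTF1 by -0.35 (0.455) and EBI3 by -0.40 (0.119). EBI3 passed in 2 alternative settings and did not in 18. The 2 were unpaired edgeR without TGF-β replicate 1 (-0.51, adjusted p = 0.0470) and paired edgeR without replicate 1 of both groups (-0.56, 0.0237). IL27 and IL31 had 0 counts in all libraries. OSM, the ligand of OSMR, averaged 0 CPM with CXCL10 and 0.104 ± 0.180 CPM with TGF-β alone. Of the 2 other receptors tested, IL31RA, which joins OSMR in the receptor for IL-31, was called lower, beside 8.04% of all genes. It fell to 7.18 ± 0.68 CPM with CXCL10, against 12.5 ± 2.48 CPM with TGF-β alone (change -0.79, SE 0.16, adjusted p = 0.00350). The groups did not overlap, beside 11.2% of all genes tested that were lower without overlap. On the FPKM scale that change did not pass (-0.40, limma-trend adjusted p = 0.153). IL27RA differed by 0.28 (edgeR adjusted p = 0.0991).

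Of 4 genes that release receptors from the cell surface, 1 rose and 1 fell in the paired fit, beside 9.71% of all genes called higher and 8.04% called lower. ADAM17, the protease known for shedding IL6R, fell by 0.25 (log2; 49.9 ± 3.28 CPM with CXCL10 and 59.2 ± 4.0 CPM with TGF-β alone, adjusted p = 0.0256). RHBDF2, which escorts ADAM17 to the surface, rose by 0.35 (41.3 ± 2.85 CPM and 32.4 ± 3.17 CPM, adjusted p = 0.00911). Neither overlapped between groups, beside 11.1% of all genes tested that did not overlap and were higher and 11.2% that were lower. The ADAM17 call was lost with DESeq2 paired (adjusted p = 0.142), on FPKM (limma-trend 0.0777) and in the paired edgeR fit without replicate 2 (0.188) or 3 (0.101), and the RHBDF2 call on FPKM (0.0533) and without replicate 2 (0.0901). ADAM10 differed by -0.13 (adjusted p = 0.0622) and RHBDF1 by 0.07 (0.457). ADAM10 passed in 3 alternative settings and did not in 17.

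Of 14 kinase, STAT and adaptor genes 3 fell and 0 rose in the paired fit, beside 8.04% and 9.71% of all genes, with a list median of -0.21. STAT2 changed by -0.33 (adjusted p = 0.0249) and the kinase gene JAK2 by -0.38 (0.0310), both with overlapping groups and with values 0.37 and 0.45 lower in TGF-β replicate 1 than in replicates 2 and 3 (log2). The STAT2 call was lost with DESeq2 paired (adjusted p = 0.0579), on FPKM (limma-trend 0.188) and in the paired edgeR fit without replicate 2 (change -0.15, 0.326). The JAK2 call was lost with DESeq2 paired (0.200), on FPKM (0.212) and without replicate 2 (0.0636) or 3 (0.185). STAT5A differed by -0.44 and did not pass (adjusted p = 0.206). Of 13 tested negative regulators only PIAS3 was called, beside 9.71% of all genes called higher and 8.04% called lower. PIAS3 encodes an inhibitor of activated STAT3. It rose by 0.36 (SE 0.07, adjusted p = 0.00446), with 70.1 ± 2.97 CPM with CXCL10 and 55.0 ± 7.65 CPM with TGF-β alone. SOCS6 differed by -0.21 (adjusted p = 0.0636), PIAS1 by -0.15 (0.311) and the phosphatase gene PTPN1 by 0.11 (0.265). SOCS6 passed in 3 alternative settings and did not in 17. The 3 were paired with library totals, unpaired without TGF-β replicate 1, and paired without replicate 1 of both groups.

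Of 22 tested genes that STAT3 is known to induce, 8 rose, 5 fell and 9 were not called, with a median of 0.20, beside 9.71% of all genes called higher and 8.04% called lower. Without replicate 1 of both groups 7 were called higher and 5 lower, beside 12.9% and 11.1% of all genes. CCND1, which encodes cyclin D1, rose by 1.28 (SE 0.14, adjusted p = 4.99e-05), with 301 ± 75.6 CPM with CXCL10 and 138 ± 94.9 CPM with TGF-β alone. TIMP1, a metalloprotease inhibitor, rose by 0.73 (adjusted p = 0.000180) and MYC by 0.63 (0.000185), while PIM1, a kinase, fell by 0.58 (log2; 35.5 ± 8.10 CPM and 52.9 ± 10.7 CPM, adjusted p = 0.000194). In TGF-β replicate 1 CCND1 lay 1.58, TIMP1 1.06 and MYC 0.55 above the mean of replicates 2 and 3, and PIM1 lay at -0.48 (log2). Without that library the unpaired change of CCND1 was 1.86, against 1.13 with it, and that of TIMP1 1.10, against 0.65. CCND1, MYC and PIM1 did not overlap between groups, and TIMP1 did. Of all genes tested, 11.1% did not overlap and were higher and 11.2% were lower.

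Of 15 transcription factors known to act on the IL11, LIF or IL6 genes, 5 rose and 2 fell, beside 9.71% of all genes called higher and 8.04% called lower. NFKBIZ, a nuclear IκB protein that promotes IL6 transcription, rose by 0.99 (SE 0.15, adjusted p = 0.000528) to 13.5 ± 1.64 CPM with CXCL10, against 6.84 ± 0.99 CPM with TGF-β alone. The AP-1 subunit FOSL1 rose by 0.71 (28.0 ± 5.53 CPM and 17.01 ± 2.04 CPM, adjusted p = 0.000289) and NFKB2 by 0.50 (adjusted p = 0.00295). SMAD3, a carrier of the TGF-β signal, fell by 0.32 (log2; 45.2 ± 3.73 CPM and 56.5 ± 6.60 CPM, adjusted p = 0.00647). The NFKB2 call was lost on FPKM (limma-trend adjusted p = 0.151), and the SMAD3 call on FPKM (0.118) and in the paired edgeR fit without replicate 3 (0.0542). None of these 4 genes overlapped between groups, beside 11.1% of all genes that did not overlap and were higher and 11.2% that were lower. DESeq2 without pairing also called NFKBIZ (adjusted p = 0.00119) and FOSL1 (0.00626).

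**Figure D5:**
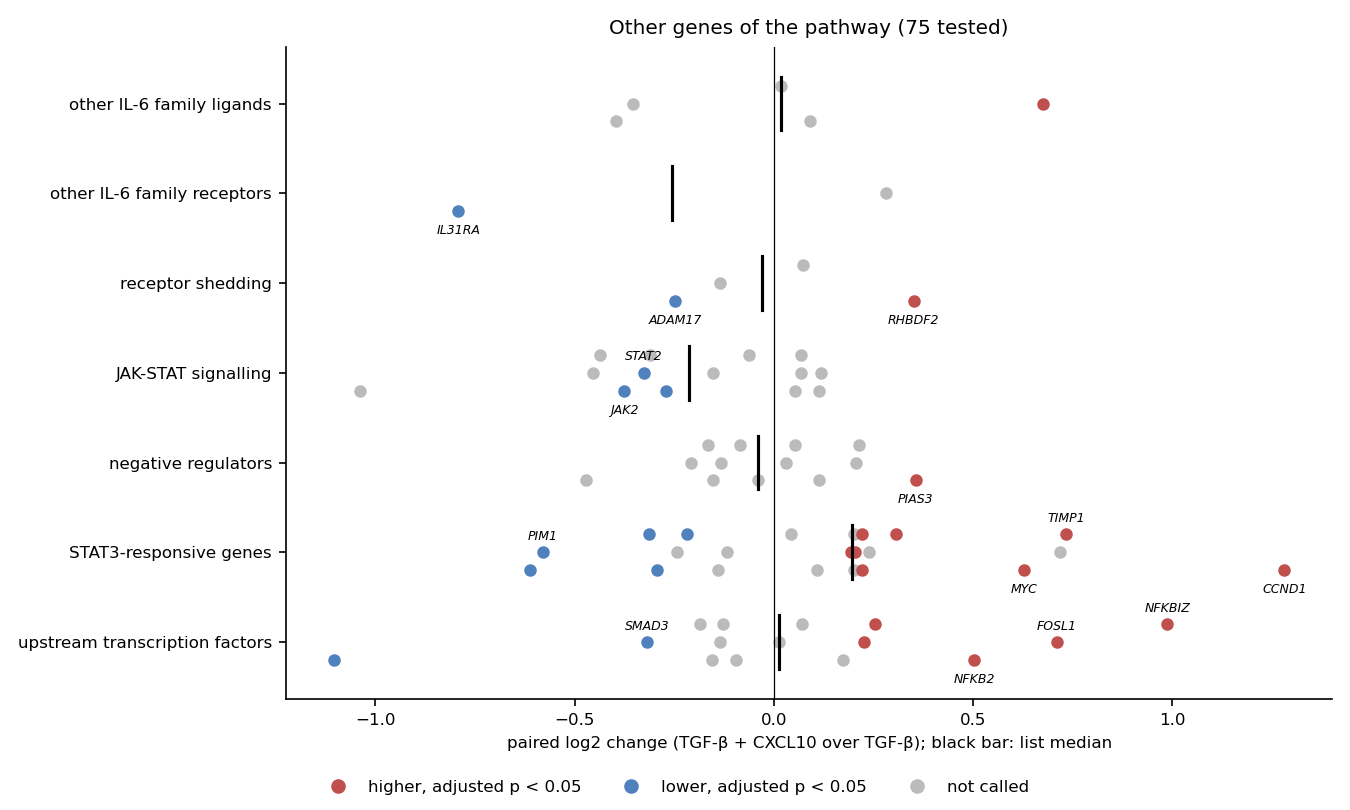
Paired log2 change with CXCL10 over TGF-β alone for the 75 tested genes of 7 lists. Each point is a gene, coloured by whether the paired edgeR fit called it higher or lower, and the black bar is the list median. Genes are called on both sides of 0 among the STAT3-responsive genes (8 higher, 5 lower) and the upstream transcription factors (5 higher, 2 lower), and the JAK-STAT signalling genes called lie below 0 (3).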

How the data were processed

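Per the labels' protocols, total RNA went into a SMARTer library kit. No aligner or counter is named in the labels or file headers, and the submitters' processing notes name GRCm38 and mm10 while all 20323 rows are human Ensembl genes. Per the file headers, the authors deposited raw counts and FPKM per gene and library, their mean FPKM per group, the log2 ratio of these means, and a p-value and adjusted p-value whose test is not stated. For some genes, LIF among them, the counts and FPKM do not share 1 fixed length over the libraries, while for SOCS3 they do. The tool behind the FPKM is not named, and the cause was not tested.

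Samples were grouped by the treatment label. The deposited counts went into edgeR's quasi-likelihood test (version 4.0.16, R 4.3.3, TMM, filterByExpr with a minimum count of 10 and total of 15, Benjamini-Hochberg over 11970 genes), first without and then with the replicate number as a block. Deviations of same-numbered libraries correlated at 0.330, 0.121 and 0.163 across genes, each over 0.1, so paired values are printed where they change a call. Replicates 2 and 3 of different groups correlated at 0.082 and 0.080, so the numbers 2 and 3 are only weakly told apart. This pairing comes from the data, and the labels do not say that replicates are separate cultures, so p-values may measure technical spread. Alternatives were DESeq2 1.42.0, limma-voom and limma-trend 3.58.1 on log2(FPKM + 1), other scalings and left-out libraries. The fits were tested on simulated data. Standard errors are the log2 change over the root of edgeR's F. Permutation tests used scipy 1.17.1. Log2 CPM per library used a prior count of 2.

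The members, the lists and the rule for named genes (all members, the 4 genes per list with the lowest paired p, and the 5 genes most like IL11 and LIF) were chosen with earlier results of these data known. Some genes that the rule names are not reported here. For genes in 2 rows the row with more counts was used.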

Additional observations from a re-analysis of the deposited data

How the results depend on the processing

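Of the 10 genes the unpaired edgeR fit called 0, of all genes 0 and of the other pathway genes 0, also with DESeq2's size factors, with library totals, with no filter and with limma-voom. With the replicate block the 3 counts were 3, 2124 and 28 (library totals 3, 2236 and 26; limma-voom 3, 2108 and 29; DESeq2 3, 1138 and 20; limma-trend on FPKM 1, 689 and 12). DESeq2 without the block gave 1, 335 and 8. With the block and without replicate 1, 2 or 3 of both groups the counts were 3, 2 and 2 for the 10 genes, 2872, 1344 and 1216 for all genes and 29, 19 and 18 for the pathway. With the block and no filter, chosen after seeing the data, they were 4, 2436 and 28. Leaving out 1 library at a time gave 0 to 3, 0 to 2350 and 0 to 25, above 0 only without TGF-β replicate 1.

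IL11 stayed positive under its 20 alternatives (0.85 to 1.91, called in 10), as did LIF (0.35 to 0.88, called in 10) and OSMR (0.15 to 0.29, called in 7). Uncalled log2 differences that changed sign were those of IL11RA (0.0621 paired, 0.018 paired with library totals, 0.0936 DESeq2 paired, 0.14 limma-voom, 0.0723 limma-trend, 0.11 and 0.43 paired without replicates 2 and 3, 0.0717 paired unfiltered, -0.34 to 0.52 without 1 library), LIFR (-0.0879 limma-trend), IL6R (0.0128 paired unfiltered), IL6ST (-0.0372 to 0.0065 without 1 library), STAT3 (0.0173 paired without replicate 2, -0.0424 to 0.0309 without 1 library), SOCS3 (-0.0126 and -0.0119 with library totals, unpaired and paired, -0.0087 limma-trend, -0.0425 paired without replicate 3, -0.0332 to 0.13 without 1 library) and RHBDF1 (-0.0075 limma-trend). The cause was not tested. Depth limits IL6, IL6R and IL11RA, with at most 52 counts in a library.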
